A study of Homo sapiens with 2 samples.

Results

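Genes that are direct targets of the coactivator YAP and the TEAD transcription factors were examined in AsPC-1 cells, which are an established line from a human pancreatic adenocarcinoma. The members were the probe sets annotated to CCN2 (CTGF), AXL, AMOTL1, AMOTL2, AJUBA, LATS2, CRIM1 or FJX1, chosen by gene name, with earlier results of these data known. Of these 8 genes, 7 had a named probe set, 9 probe sets in all, among 14884 named genes on the array. The expression of LATS2 was not analysed here. The cells were grown in 3 dimensions under an overlay of collagen gel, in serum-containing medium, either under a compressive stress of 2.9 mmHg or without compression, in each case for 24 h. Total RNA of 1 compressed and 1 uncompressed culture was measured on 1 array each, of the GeneChip Human Gene 2.0 ST type that covers whole transcripts. Levels are log2 signals summarised by RMA, and a difference is the compressed minus the uncompressed log2 level.

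YAP and its paralog TAZ have no DNA-binding domain and reach their target genes through the TEAD factors. The Hippo kinases phosphorylate YAP and TAZ and keep them out of the nucleus, and stretching, a stiff matrix or tension in the actin cytoskeleton promotes their nuclear entry. Several target genes encode inhibitors of YAP, so that the pathway feeds back on itself.

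The targets differed by less than 1.5-fold between the compressed and the uncompressed culture, as did most of the kept genes defined below. Of the 7 measured members, 6 had a higher level in the compressed culture and FJX1 had a lower one. No member was 1.5-fold higher or lower (0.58 on the log2 scale). Among all 7442 kept genes, those whose mean level reached the median over genes (4.79, called the floor), 3.95% were at least 1.5-fold higher, 1.12% were at least 1.5-fold lower and 50.8% had a difference above 0. The largest member difference, that of AXL, was 0.43. In such bulk RNA a change in the share of cells expressing a gene and a change in its RNA per cell cannot be told apart. The members' median difference was 0.16, against 0.01 over all kept genes, whose middle 50% ran from -0.15 to 0.18. CCN2 is in this median and among the 6 higher members through its compressed level, since its uncompressed level lay below the floor. With the probe sets of each gene averaged, CCN2 left the kept genes and the median of the other 6 members was 0.12. With 1 array per condition the spread between cultures is unknown, so no test was possible and precision is limited by having so few arrays. The only repeat within an array is a second probe set of the same gene. Over 141 protein-coding genes with 2 different probe sets above the floor, it gave an SD of 0.186 for the difference of a single probe set, which covers error within the arrays but not between cultures.

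**Figure D1:**
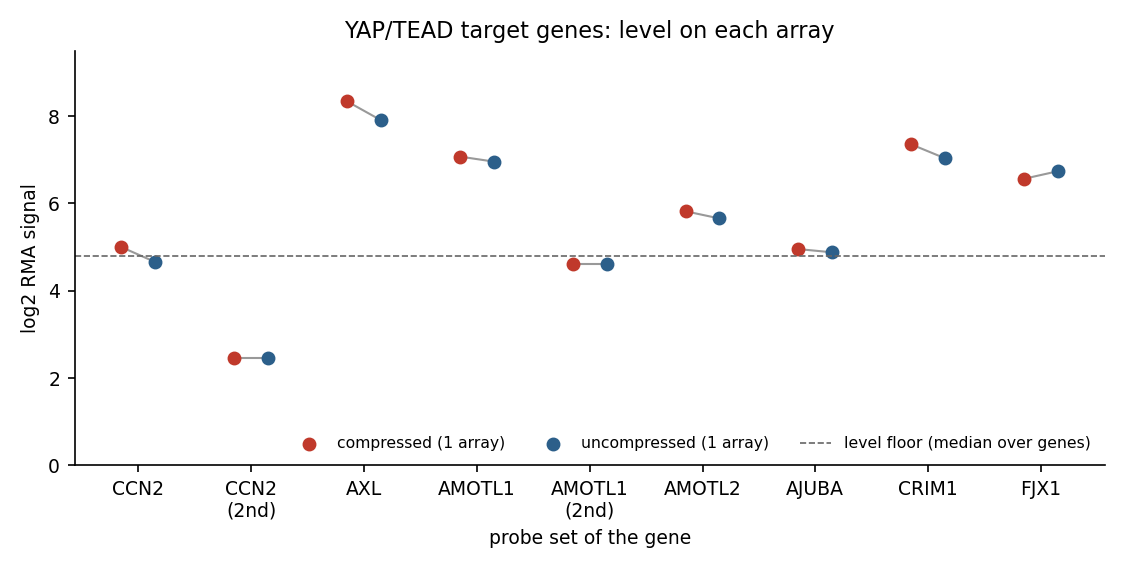
Level (log2 RMA signal, vertical axis) of each probe set of the 7 measured YAP/TEAD target genes on the compressed (red, left) and the uncompressed array (blue, right), 1 array each, with "2nd" marking a gene's dimmer probe set and the dashed line the floor of 4.79. The points of each pair lie close together, the red point is higher in 6 genes and lower in FJX1, and the second probe sets of CCN2 and AMOTL1 have the same value on both arrays.

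Among the secreted and cell surface products, CCN2 encodes connective tissue growth factor, a matricellular protein that is among the most used readouts of YAP activity. Its brighter probe set read 5.00 in the compressed and 4.66 in the uncompressed culture, a difference of 0.34. The compressed level was just above the floor of 4.79 and the uncompressed level below it, so whether the gene was above background without compression is unknown and no fold is given. The second CCN2 probe set read 2.46 on both arrays. Averaged over both probe sets, the CCN2 difference was 0.17 and the mean level lay under the floor.

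The CCN2 promoter is shown because it holds repeated copies of the TEAD motif. The sequence covers the 250 bases before the RefSeq start on the minus strand (GRCh38.p14, chr6:131951373-131951622), with matches of GGAATG in capitals.
CCN2: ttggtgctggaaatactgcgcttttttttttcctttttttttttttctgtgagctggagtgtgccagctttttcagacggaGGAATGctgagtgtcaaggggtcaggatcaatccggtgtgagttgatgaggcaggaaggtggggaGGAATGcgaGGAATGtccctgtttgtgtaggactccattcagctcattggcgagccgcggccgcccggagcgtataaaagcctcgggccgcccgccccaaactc
It held 3 matches, all on the strand of the gene, which began 169, 104 and 95 bases before the start. Of 35116 RefSeq promoter windows of the same length, 11.9% held GGAATG on either strand at least once and 29 windows (0.0826%) held at least 3 matches. The count of 3 was looked up after the CCN2 sequence was seen. A match describes the letters and does not show that a TEAD factor binds there in AsPC-1.

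AXL, a receptor tyrosine kinase of the TAM family whose ligand is GAS6, had the largest difference of the members. Its level was 8.34 in the compressed and 7.91 in the uncompressed culture, 1.35-fold higher, and 8.12% of kept genes had a larger positive difference. Both levels were far above the floor. Among the 1489 kept genes in the same of 5 bins of mean level, the middle 50% of differences ran from -0.15 to 0.15, so AXL lay above that range. GAS6 itself read 4.96 in the compressed and 4.61 in the uncompressed culture, around the floor. The related receptors differed by 0.27 for MERTK (6.89 and 6.62 in the compressed and uncompressed cultures) and by -0.11 for TYRO3 (4.95 and 5.06). PROS1, which encodes protein S, another ligand of this receptor family, read 5.65 in the compressed and 5.86 in the uncompressed culture. The 3 kept protein-coding genes with the most similar pair of levels to AXL were CDK7, RNF19B and PARD3, at distances of 0.0417, 0.0769 and 0.0867 over the 2 arrays. With only 2 arrays such likeness means no more than 2 similar levels.

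CRIM1 encodes a membrane-anchored protein that binds bone morphogenetic proteins (BMPs) and restrains their secretion. It read 7.35 in the compressed and 7.03 in the uncompressed culture, and its difference of 0.32 lay above the middle 50% of kept genes of like level (-0.14 to 0.19). Of BMP2, BMP4 and BMP7, the BMP genes listed as partners of CRIM1, only BMP4 and BMP7 were above the floor, each with a negative difference. BMP4 read 10.2 on both arrays, with a difference of -0.03, and BMP7 read 5.997 in the compressed and 6.43 in the uncompressed culture, 1.35-fold lower.

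FJX1 is the human counterpart of four-jointed, a Drosophila Golgi kinase that acts on the protocadherins Fat and Dachsous. It was the 1 member with a lower level under compression, at 6.57 in the compressed and 6.74 in the uncompressed culture, 1.13-fold lower. The difference of -0.17 was smaller in size than the SD of 0.186 for a single probe set. It nevertheless lay below the range of kept genes of like level that was given for CRIM1 (-0.14 to 0.19). In size the FJX1 difference was larger than that SD after loess correction (-0.21) and after repeated quantile normalization (-0.24). Of the human Fat and Dachsous genes, FAT1 read 9.12 and 8.92 in the compressed and uncompressed cultures, whereas FAT4 and DCHS1 lay below the floor on both arrays. The FJX1 promoter is shown as a window with no match of GGAATG on either strand (250 bases before the start, plus strand, GRCh38.p14, chr11:35618210-35618459).
FJX1: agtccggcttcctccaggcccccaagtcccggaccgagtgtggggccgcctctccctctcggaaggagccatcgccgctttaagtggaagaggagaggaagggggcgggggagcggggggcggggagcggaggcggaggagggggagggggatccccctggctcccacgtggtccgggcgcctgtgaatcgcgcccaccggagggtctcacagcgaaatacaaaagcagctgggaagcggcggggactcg
The window was richer in G and C (70.4%) than that of CCN2 (53.2%), but the AMOTL2 window with a match had 73.6%. AMOTL1 also had no match, with a difference of 0.11. A link between the motif and the differences was not tested.

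**Figure D2:**
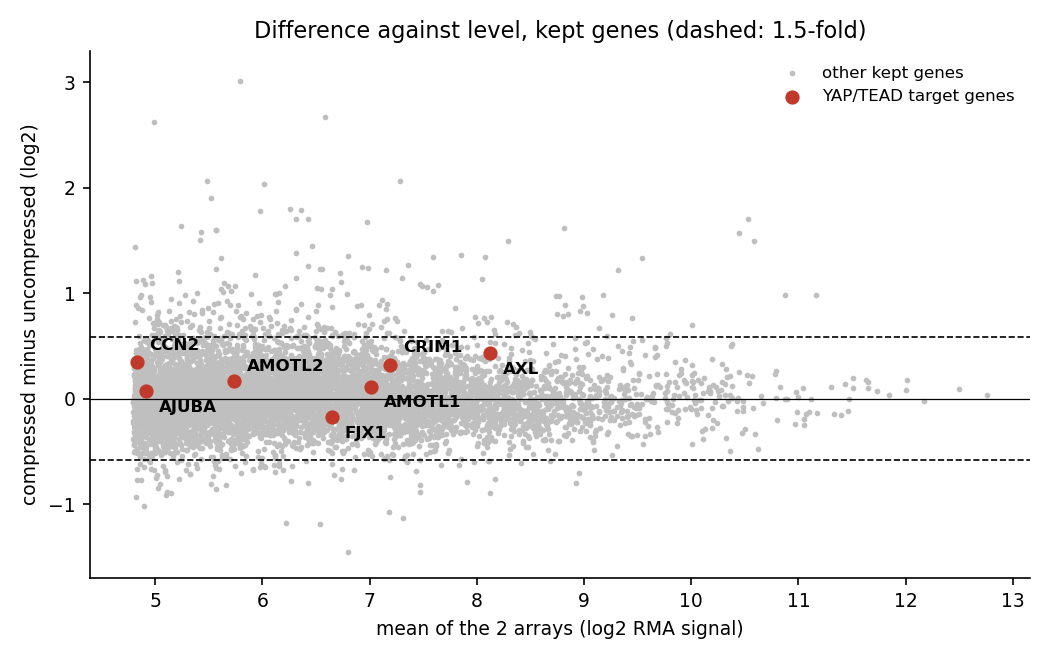
Difference (compressed minus uncompressed, log2, vertical axis) against the mean level over the 2 arrays (log2 RMA signal, horizontal axis) for the 7442 kept genes, with the YAP/TEAD target genes in red and dashed lines at 1.5-fold. All 7 members lie between the dashed lines, from -0.17 for FJX1 to 0.43 for AXL.

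The feedback and scaffold genes AMOTL1, AMOTL2 and AJUBA had the smallest differences in size. AMOTL1 and AMOTL2 encode angiomotin-like proteins of cell junctions that bind YAP and hold it in the cytoplasm. AMOTL1 read 7.07 in the compressed and 6.96 in the uncompressed culture, a difference of 0.11. Its second probe set, below the floor, read 4.61 on both arrays. AMOTL2 read 5.82 in the compressed and 5.66 in the uncompressed culture, a difference of 0.16. Their paralog AMOT was below the floor and read 3.47 on both arrays. AJUBA, a LIM-domain protein that binds and inhibits LATS kinases, read 4.96 in the compressed and 4.88 in the uncompressed culture, a difference of 0.07. The levels of all 3 genes on the arrays were thus slightly higher in the compressed culture, by less than the SD for a single probe set. The related LIM-domain genes LIMD1 and WTIP differed by 0.15 and -0.17. Differences larger in size, in either direction, than those of AMOTL2, AMOTL1 and AJUBA were found in 50.6%, 64.2% and 76.2% of kept genes.

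Exactly equal values on both arrays, as in the second probe sets of CCN2 and AMOTL1 and in AMOT, were found for 3118 probe sets of the table (5.82%). How these values arose was not tested, so an equal value is not read as an unchanged gene.

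RefSeq gave promoter windows for 7 of the 8 members, 10 windows in all, since AXL, AMOTL2 and AJUBA each have 2 starts. GGAATG was found in 4 of the 10 windows in the 250 bases before the start, those of CCN2 and of 1 start each of AXL, AMOTL2 and AJUBA, against 11.9% of all windows. With the 50 bases after the start included, LATS2 also had a match, which made 5 windows (14.0% of all windows). The AP-1 motif TGANTCA, bound by the FOS and JUN factors that often share enhancers with TEAD, was in 0 of the 10 windows before the start and in 6.57% of all windows. The matches of the genes with 2 starts are shown with 12 bases on each side, in the direction of the gene, because the letters around the motif differ among them. The motif is in capitals, and CATTCC is GGAATG read on the opposite strand.
AXL: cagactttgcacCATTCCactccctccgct
AMOTL2: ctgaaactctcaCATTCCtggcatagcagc
AJUBA: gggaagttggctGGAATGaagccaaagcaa
The AXL window lies at chr19:41226531-41226560 on the plus strand, that of AMOTL2 at chr3:134374499-134374528 on the minus strand and that of AJUBA at chr14:22976884-22976913 on the minus strand (GRCh38.p14). Which start AsPC-1 cells use was not tested. Members with a match before the start had differences from 0.07 (AJUBA) to 0.43 (AXL), and the measured members with promoter windows but no match, AMOTL1 and FJX1, had 0.11 and -0.17. These are 6 genes, of which AXL, AMOTL2 and AJUBA had 2 windows to match in and the others 1. The matches of AXL, AMOTL2 and AJUBA all lay before the downstream start, and their upstream windows had none. A link between match and difference was not tested, and TEAD factors also act from distant enhancers that the windows do not cover.

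**Figure D3:**
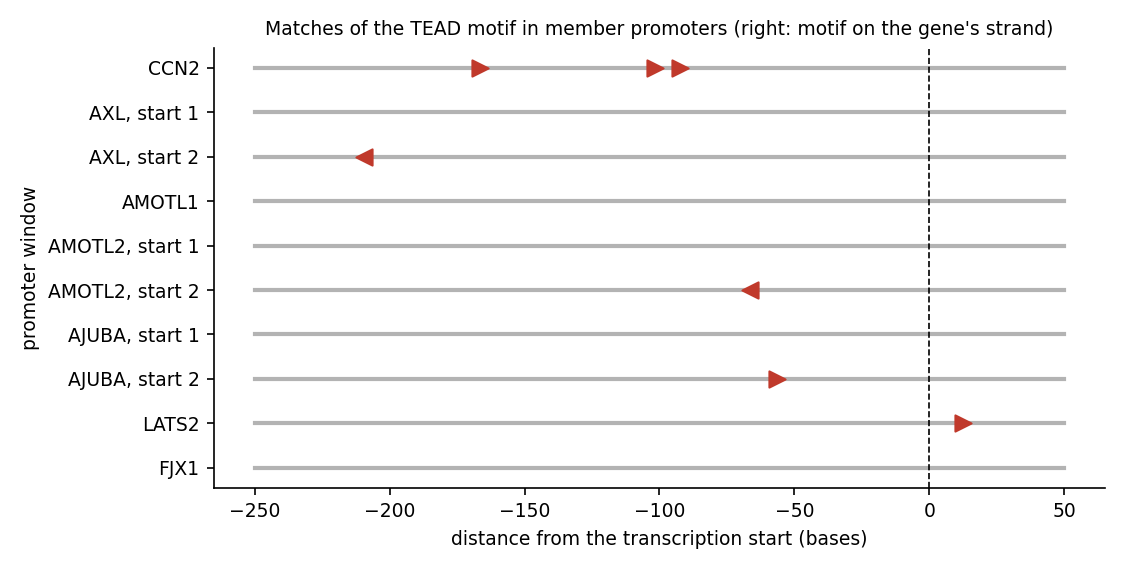
Matches of the TEAD motif GGAATG in the 10 RefSeq promoter windows of the members (rows), by distance from the transcription start in bases (horizontal axis, dashed line at the start), with right-pointing arrows for the strand of the gene and left-pointing arrows for the opposite strand. CCN2 has 3 matches, 1 start each of AXL, AMOTL2 and AJUBA has 1, and the match of LATS2 lies after the start.

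Other genes of a widely used YAP/TAZ signature were set beside the members. Of 16 such genes 7 had a named probe set and 3 were above the floor. All 3 had a positive difference, against 50.8% of all kept genes, and 0 passed 1.5-fold. IGFBP3, which binds insulin-like growth factors outside the cell, read 7.08 in the compressed and 6.55 in the uncompressed culture, 1.44-fold higher. DOCK5, an activator of Rac, differed by 0.28 and MYOF, the membrane repair protein myoferlin, by 0.05, which was just below 0 after a repeated quantile normalization. The 4 genes below the floor were ANKRD1, FOXF2, CCDC80 and ARHGEF17, of which only ANKRD1 had a positive difference. With them included the median difference moved to 0.05, against 0.28 for the 3 kept genes.

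The coactivators and DNA-binding partners of the pathway differed by amounts like those of their targets. YAP1 read 8.33 in the compressed and 8.20 in the uncompressed culture. Its second probe set had the opposite direction (6.04 and 6.28), and the mean over both probe sets gave a difference of -0.06, so YAP1 has no settled direction. WWTR1, which encodes TAZ, read 6.07 in the compressed and 5.86 in the uncompressed culture. Of the TEAD genes, TEAD3 differed by 0.36, TEAD1 by 0.25 and TEAD2 by -0.16, while TEAD4 read 6.42 on both arrays. Of the 8 kept genes among YAP1, WWTR1, the TEADs and the VGLL cofactors, 6 had a positive difference, against 50.8% of all kept genes. YAP1 is among the 6 only through its brighter probe set. None of the 8 passed 1.5-fold and the median was 0.16.

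The kinases and scaffolds upstream of YAP had a higher median difference than the targets (0.16), although the difference between the lists was not tested. The lists overlapped, with the target AXL at 0.43 and the upstream gene MOB1A at -0.20. Of 13 kept genes 11 had a positive difference (10 after a repeated quantile normalization, where MOB1B was at -0.02), against 50.8% of all kept genes. Among the 13, 2 were at least 1.5-fold higher, against 3.95% of all kept genes, and the median was 0.34. MAP4K4, a kinase that can activate LATS, read 8.46 in the compressed and 7.73 in the uncompressed culture, 1.65-fold higher. SAV1, the scaffold of the MST kinases, read 6.52 in the compressed and 5.88 in the uncompressed culture, 1.56-fold higher, and was just under 1.5-fold after a repeated quantile normalization (difference 0.5826). STK4, the kinase MST1, read 7.29 in the compressed and 6.74 in the uncompressed culture, 1.46-fold higher. The negative differences were those of MOB1A (-0.20) and STK38L (-0.06), a LATS cofactor and a LATS-related kinase. LATS1 was not analysed here. Among 10 kept relatives and binding partners of the members, 4 had a positive difference, against 50.8% of all kept genes. None of the 10 passed 1.5-fold and the median was -0.05.

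**Figure D4:**
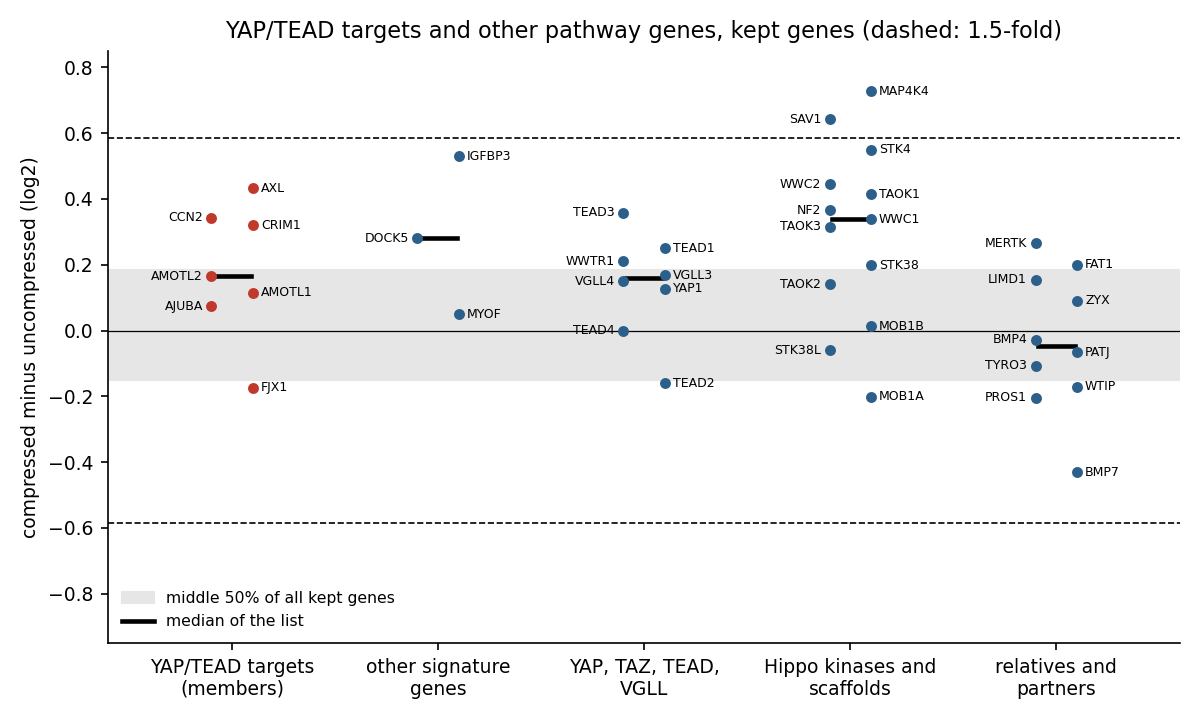
Difference (compressed minus uncompressed, log2, vertical axis) of each kept gene in the YAP/TEAD targets (red) and 4 other groups of pathway genes (blue), with the median of each list as a black bar, the middle 50% of all kept genes in grey and dashed lines at 1.5-fold. Only MAP4K4 and SAV1, both in the Hippo kinase and scaffold list, lie beyond 1.5-fold, and the target median is 0.16 against 0.34 for that list.

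The members' directions were kept under each other treatment of the values that was tried, and 0 members passed 1.5-fold under any of them. AXL ranged from 0.41 to 0.44 and CRIM1 from 0.29 to 0.33. CCN2 ranged from 0.17, the mean over its probe sets, to 0.38. AMOTL1 ranged from 0.06 to 0.12 and AMOTL2 from 0.11 to 0.17, and the members' median moved to 0.11 with a repeated quantile normalization. AJUBA ranged from 0.07 to 0.10, and FJX1 from -0.24 to -0.17. At a smaller size of 0.322 on the log2 scale 2 members were higher, AXL and CCN2, against 13.5% of kept genes, and CCN2 is in that count only through its brighter probe set and its compressed level, since its uncompressed level lay below the floor. CRIM1 was just outside at 0.319, and 0 members were lower, against 8.28%. At a size of 2-fold 0 members were higher, against 0.954% of kept genes, and 0 were lower, against 0.0806%.

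**Figure D5:**
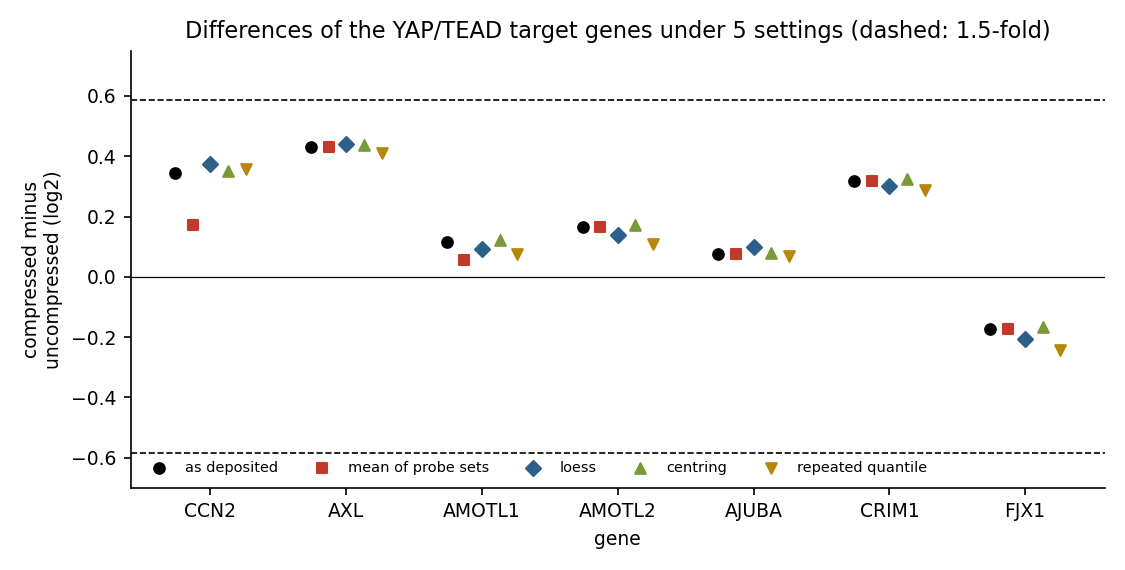
Difference (compressed minus uncompressed, log2, vertical axis) of the 7 measured YAP/TEAD target genes (horizontal axis) under 5 settings: values as deposited, mean of a gene's probe sets, loess correction, centring and repeated quantile normalization, with dashed lines at 1.5-fold. No point lies beyond a dashed line, FJX1 alone is below 0, and the CCN2 point for the mean of probe sets (0.17) stands apart from its others.

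The arrays were checked against the labelled cell type. Of 8 named markers of pancreatic epithelium 6 were above the floor, with KRT18, KRT19, EPCAM and CEACAM6 between 10.4 and 11.7 in the compressed and between 10.8 and 11.5 in the uncompressed culture, whereas KRT7 (3.78 and 3.36) and CLDN4 lay below it on average. The 3 named endothelial markers were below the floor on both arrays. Of the 3 named fibroblast markers, DCN was near the bottom of the scale (1.82 and 1.79) and THY1 near the floor, but LUM, which encodes lumican, read 9.39 in the compressed and 9.75 in the uncompressed culture. Of the 2 named immune markers, CD14 was below the floor and CD68, a lysosomal protein that many cell types also make, read 9.26 in the compressed and 8.45 in the uncompressed culture, 1.75-fold higher. Added on the linear scale, these 2 markers came to 624 signal units in the compressed and 362 in the uncompressed culture, mostly from CD68. The same sums were 707 and 890 for the 3 named fibroblast markers, in the compressed and uncompressed cultures, mostly from LUM. For the 8 named epithelial markers they were 8703 and 8664. Of the 10 listed fibroblast markers 7 had no named probe set, and of the 6 listed immune markers 4 had none. The part of these markers in the differences of the YAP/TEAD targets was not tested.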

How the data were processed

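Per the submitters' processing notes, the authors made the log2 values with RMA in the Transcriptome Analysis Console. RMA corrects background, equalises the arrays by quantile normalization and summarises probes, so a change common to all genes is removed and differences of dim probe sets are understated. Neither versions nor the genome build is given in the sources used here. A deposited table held 1 log2 value per array for each of the 53617 probe sets, and the platform annotation named 1 gene each for 16098 of them, updated through RefSeq identifiers. No detection calls were used.

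The probe set with the highest mean stood for its gene, and genes at or above the median level were kept (7442 of 14884). Grouping followed the treatment label. No test was possible with 1 array per group. Genes were read against a fixed size of 1.5-fold, a rule tested on simulated data only for changes of 2-fold or more. Changes as small as the members' differences were not simulated. The text names all members, up to 3 genes per direction of each other list, YAP1, WWTR1 and the TEAD genes, and the 3 genes closest to the member with the largest difference. Ligands and relatives given beside a member, genes below the floor and cell type markers come on top of that rule. The members and lists were chosen with earlier results of these data known. No protein sequences were used here. Alternatives were the mean of probe sets, no floor, a floor at the 75th percentile, loess (span 0.3), centring, repeated quantile normalization, sizes of 0.322 (log2) and 2-fold, and means. Values were computed in Python 3.11.15 with statsmodels 0.14.6 for loess, pandas 2.3.3 and NumPy 2.4.6 for tables, and matplotlib 3.10.9 for plots.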

Additional observations from a re-analysis of the deposited data

How the results depend on the processing

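No paired analysis was possible because each group has 1 array, and for the same reason no replicate could be left out. Of 217 alternative values, 215 moved by less than the SD of 0.186 for a single probe set or, for counts, by under 1.5 times. This count does not measure robustness. The mean of probe sets cannot change a gene with 1 probe set, and centring shifts every gene alike. The SD also exceeds the members' median of 0.16. Thus CCN2 at 0.17 against 0.34 and the change of sign of YAP1 are among the 215. The other 2 were the median of the other signature genes, 0.0499 with no level floor against 0.28, and the members higher by the size used, 2 at 0.322 on the log2 scale against 0 at 1.5-fold. The members' median ranged from 0.11 to 0.22. The median of the relatives and partners has no settled sign, from -0.12 to 0.09. Among the 41 kept genes of the lists, YAP1, TEAD4, MYOF and MOB1B changed sign or left 0 under at least 1 alternative. The repeated quantile normalization took SAV1 under 1.5-fold, and MAP4K4 stayed above it throughout, from 0.72 to 0.73. The counts of promoter windows with a match were 4 before the start and 5 with the bases after it for TEAD, and 0 in both for AP-1. Signal near the floor limits CCN2 and AJUBA most, since whether a dim probe set is above background is unknown.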
